A study of Mus musculus with 4 samples.

Results

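Doxorubicin kills cells largely by trapping topoisomerase II on cleaved DNA, and 8 mouse genes that bear on its target, its export and its chemical reduction are described here in leukaemia cells. They are the topoisomerase II genes Top2a and Top2b, the efflux pump genes Abcb1a, Abcb1b, Abcc1 and Abcg2, and the reductase genes Cbr1 and Por. They were chosen by name, as 8 of the 27998 gene rows of a single-cell count table. Topoisomerase II passes one DNA duplex through a break in another, and mammals have an alpha form tied to proliferation and a beta form that resting cells keep. Efflux pumps of the ABC family use ATP to export drugs. Carbonyl reductase turns doxorubicin into its alcohol, while cytochrome P450 reductase can pass an electron to its quinone ring.

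The cells were GFP-positive leukaemia cells sorted from C57BL6 mouse bone marrow (age 11 weeks). They descended from c-Kit+ marrow cells that carried a loxP-flanked Hif-1alpha gene and CreERT2, a Cre recombinase switched on by tamoxifen, and that had been transduced with a retrovirus encoding the leukaemia fusion protein MLL-AF9. The 4 samples were Hif-1a KO with chemotherapy, Hif-1a wt with chemotherapy, Hif-1a KO with PBS and Hif-1a wt with PBS, 1 each. Mice carrying transplanted leukaemias received 1 mg tamoxifen or vehicle for 5 days, beginning 10 days after transplantation. The chemotherapy mice then received 5 days of cytarabine (100 mg/kg) and 3 days of doxorubicin (3 mg/kg), and cells were collected 3 days after the last dose. MLL-AF9, the floxed allele and CreERT2 were common to all 4 samples, and the labels do not say whether marrow of several mice was pooled. Cell barcodes carry 1 of 4 number suffixes, which no label or header links to a sample. The suffixes are therefore 4 samples with no assigned group, and no comparison of genotype or treatment was made.

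After removal of 208 barcodes with over 10% mitochondrial UMIs (unique molecular identifiers, each standing for one captured transcript), 1174, 1251, 1625 and 1406 cells remained in suffixes 1 to 4, with 7644436, 8327726, 9932649 and 8550371 UMIs. Levels are counts per 1000000 UMIs (CPM) summed over cells. A count of 0 allows up to 3 counts, between 0.302 and 0.392 CPM by suffix. Intervals are 95% and cover counting error only, and with no replicate there is no p-value. Only 17 of 5647 barcode sequences occurred under more than 1 suffix. Myeloid markers were present in every suffix. The 11 measured granulocyte precursor markers summed to between 7098 and 17066 CPM and the 17 monocyte markers to between 3873 and 11649 CPM. The 10 erythroid markers summed to between 2.52 and 4.33 CPM, with 3 of them at 0, and the 8 measured T and NK cell markers to at most 0.234 CPM, with 6 of them at 0. Other lists were not near 0. B cell markers summed to between 66.7 and 88.1 CPM, with 3 of 7 measured at 0. Stromal and endothelial markers summed to between 87.2 and 105 CPM, with 5 of 10 at 0. Dendritic cell and MHC class II markers summed to between 148 and 186 CPM, and macrophage markers to between 153 and 549 CPM.

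The promoter letters of Top2a and Top2b, and of Abcb1b as the one of the Abcb1 pair that was counted, are shown. Of the members, Top2a differed most across the cell cycle, and Top2b did not share its pattern. Each run is the 250 bases before the RefSeq start site (GRCm38.p6), 5′ to 3′ on the gene's strand, with CCAAT boxes of either strand (CCAAT or its reverse complement) in capitals. The CCAAT box is the site bound by NF-Y, a factor common at promoters of cell cycle genes.
Top2a, chr11:99024190-99024439, minus strand: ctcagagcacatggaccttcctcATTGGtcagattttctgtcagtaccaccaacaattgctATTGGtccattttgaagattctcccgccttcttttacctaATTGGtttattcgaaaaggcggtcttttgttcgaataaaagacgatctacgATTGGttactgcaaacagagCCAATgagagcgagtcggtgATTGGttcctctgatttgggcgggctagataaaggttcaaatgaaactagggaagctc
Top2b, chr14:16364956-16365205, plus strand: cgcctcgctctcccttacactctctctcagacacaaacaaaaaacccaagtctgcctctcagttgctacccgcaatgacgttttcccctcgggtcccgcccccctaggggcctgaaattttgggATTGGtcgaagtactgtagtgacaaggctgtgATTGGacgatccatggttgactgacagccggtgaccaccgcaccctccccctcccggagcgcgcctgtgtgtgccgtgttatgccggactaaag
Abcb1b, chr5:8797897-8798146, plus strand: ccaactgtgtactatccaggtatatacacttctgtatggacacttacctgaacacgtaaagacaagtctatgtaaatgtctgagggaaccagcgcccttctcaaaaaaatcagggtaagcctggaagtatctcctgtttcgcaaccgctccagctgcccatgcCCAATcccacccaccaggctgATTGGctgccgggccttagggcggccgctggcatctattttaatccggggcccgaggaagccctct

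The Top2a window held 6 CCAAT boxes, at 227, 189, 149, 98, 78 and 58 bases before the start site. Only 19 of 32851 RefSeq promoter windows of this length, 0.0578%, held as many. The Top2b and Abcb1b windows held 2 each, and 10.1% of windows held at least as many. At least 1 CCAAT box stood in 33.9% of windows. Of the other motifs searched on both strands, TTTGAA is the core of the cell cycle element CHR. It occurred 2 times in the Top2a window and in neither of the other printed windows, against 16.0% of all windows with it. Among the windows not printed, that of Abcb1a also held TTTGAA 2 times. It lies at chr5:8566841-8567090, while GENCODE M21 starts that gene at 8660077. The Abcg2 windows starting at 58584283 and 58596422 held TTTGAA 1 time each, and the windows of Cbr1 and Por held 0. The Abcg2 window at 58596422 and those of Cbr1 (93607587) and Por (135688895) start inside the genes as placed by GENCODE M21. Counts in windows away from the annotated gene start are not like for like with the printed ones. GGGCGG, the GC box, occurred once in each printed window and in 32.7% of all windows. These are letter matches in a fixed window and say nothing of binding.

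Top2a was counted at a similar level in all suffixes. Its gene (ENSMUSG00000020914.17) lies on chromosome 11 from 98992943 to 99024189, minus strand. Levels were 119 CPM for suffix 1 (112 to 127), 99.2 for suffix 2 (92.5 to 106), 100 for suffix 3 (93.9 to 106) and 112 for suffix 4 (105 to 120). Suffixes 1 and 4 were the higher pair and their intervals overlapped, as did those of suffixes 2 and 3. The widest gap was a ratio of 1.2 of suffix 1 to suffix 2 (1.09 to 1.32). The 3694 Top2a UMIs lay in 1320 cells, with up to 15 in a cell.

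Top2b (ENSMUSG00000017485.11, chromosome 14 from 16365179 to 16435462, plus strand) stood at 52.1 CPM for suffix 1 (47.1 to 57.4), 50.2 for suffix 2 (45.5 to 55.2), 36.6 for suffix 3 (33.0 to 40.6) and 40.3 for suffix 4 (36.2 to 44.8). Suffixes 1 and 2 were above suffixes 3 and 4, without overlap of the intervals. Its UMIs were spread thinly, with at most 4 in a cell. Of all UMIs of the pair, Top2a made up 69.6%, 66.4%, 73.2% and 73.6% in suffixes 1 to 4. Both were counted at transcript 3′ ends and share none of 451 windows of 50 bases in their last 500 bases, and how efficiently each was captured is unknown.

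Only one of the Abcb1 pair, which encodes P-glycoprotein in rodents, was counted. Abcb1a (ENSMUSG00000040584.8, chromosome 5 from 8660077 to 8748575, plus strand) had 0 UMIs in each of the 4 suffixes, which over 34455182 UMIs allows up to 0.0871 CPM. Abcb1b (ENSMUSG00000028970.9, chromosome 5 from 8798147 to 8866315, plus strand) had 35, 42, 83 and 59 UMIs in suffixes 1 to 4, or 4.58, 5.04, 8.36 and 6.90 CPM. The last 500 bases of the Abcb1a transcript share 0 of 451 windows of 50 bases with the Abcb1b transcript, and the reverse figure was 14 of 451.

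Abcb1b was higher in suffix 3 than in suffix 1, where the ratio of suffix 1 to suffix 3 was 0.548 (0.358 to 0.823), and than in suffix 2, where it was 0.604 (0.406 to 0.885). Abcc1, which encodes the pump MRP1 (ENSMUSG00000023088.17, chromosome 16 from 14361558 to 14475737, plus strand), stood at 9.42 CPM for suffix 1 (7.37 to 11.9), 5.64 for suffix 2 (4.15 to 7.51), 9.06 for suffix 3 (7.29 to 11.1) and 9.59 for suffix 4 (7.63 to 11.9). Suffix 2 was the low one, with a ratio of suffix 2 to suffix 4 of 0.588 (0.402 to 0.852). Abcg2, the pump BCRP that marks a drug-exporting side population of marrow stem cells (ENSMUSG00000029802.13, chromosome 6 from 58584523 to 58695676, plus strand), had 0, 1, 2 and 1 UMIs in suffixes 1 to 4, near the limit of a count of 0. Abcb1a and Abcg2 fell below the minimum mean of 5 CPM used for ratios, and the other 6 members were among the 8244 genes above it.

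Cbr1, the cytosolic carbonyl reductase, had the widest differences between suffixes of the 6. Its gene (ENSMUSG00000051483.9) lies on chromosome 16 from 93605853 to 93610505, plus strand. It stood at 36.2 CPM for suffix 1 (32.1 to 40.8), 32.8 for suffix 2 (29.0 to 36.9), 14.0 for suffix 3 (11.8 to 16.5) and 13.2 for suffix 4 (10.9 to 15.9). Suffixes 1 and 2 were both more than 2-fold above suffixes 3 and 4. The ratio of suffix 1 to suffix 3 was 2.59 (2.10 to 3.20) and that of suffix 1 to suffix 4 was 2.74 (2.20 to 3.44). Suffix 2 exceeded suffix 3 by 2.34-fold (1.90 to 2.89) and suffix 4 by 2.48-fold (1.99 to 3.12). Cbr1 was the only member past 2-fold, 1 of 6, beside 5.13% of all tested genes in suffix 1 over 3, 3.75% in suffix 1 over 4, 2.90% in suffix 2 over 3 and 2.18% in suffix 2 over 4. Suffixes 1 and 2 overlapped in interval, as did suffixes 3 and 4.

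Por, cytochrome P450 reductase, varied least between suffixes. Its gene (ENSMUSG00000005514.14) lies on chromosome 5 from 135670033 to 135735326, plus strand. It stood at 29.6, 30.5, 29.4 and 25.6 CPM in suffixes 1 to 4, and the interval of the ratio included 1 for every pair of suffixes. Its gene and those of the other members have no gene of the same strand over their 3′ end in GENCODE M21.

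**Figure D1:**
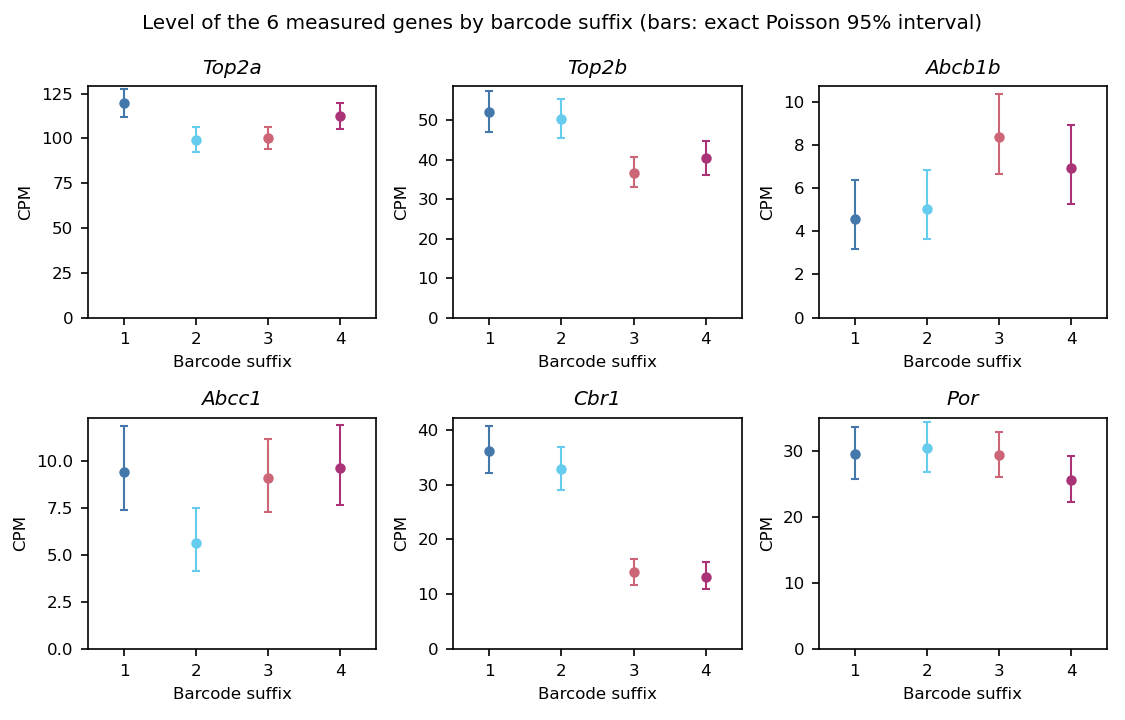
Level in CPM (y axis, from 0) of the 6 measured members in each barcode suffix (x axis), with exact Poisson 95% intervals. Cbr1 stands at 36.2 and 32.8 CPM in suffixes 1 and 2 and at 14.0 and 13.2 CPM in suffixes 3 and 4, while Por stays between 25.6 and 30.5 CPM.

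Of the 6 measured members, Top2a differed most between cycling states. Cells were placed in 4 ranges by their UMIs for 43 S phase genes and 53 G2 and M phase genes, neither list holding a member, after each cell had been thinned to 2000 UMIs. A cell was high in a list from 6 S or 8 G2/M UMIs upward. The ranges are parts of a score, not cell types, and 557 and 534 of 5342 cells lay within 1 UMI of the S and the G2/M limit. The ranges low in both, high in S only, high in both and high in G2/M only held 2992, 787, 937 and 626 cells.

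Top2a stood at 8.29, 8.95, 10.7 and 8.60 CPM in suffixes 1 to 4 in the range low in both. In the S-only range it stood at 86.1, 70.3, 100 and 79.1 CPM. In the range high in both it reached 219 CPM for suffix 1 (202 to 237), 215 for suffix 2 (196 to 235), 322 for suffix 3 (296 to 350) and 373 for suffix 4 (343 to 405). Each suffix thus kept the same order, from the low range through S only to both. In the G2/M-only range the levels were 136, 146, 235 and 219 CPM, below the range high in both in every suffix. At the same range, suffixes 3 and 4 were above suffixes 1 and 2 in the range high in both and in the G2/M-only range, without overlap of the intervals, although their summed levels over all cells were alike. The low range held 36.0%, 42.7%, 71.6% and 66.6% of the cells of suffixes 1 to 4.

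On the log2 scale of CPM + 1, as the median over the 4 suffixes, Top2a differed from the low range by 3.08 in the S-only range (lowest suffix 2.84, highest 3.23), by 4.68 in the range high in both (4.44 to 5.28) and by 4.11 in the G2/M-only range (3.88 to 4.52). A member is counted as higher or lower where this median reaches 1.2-fold, every usable suffix goes the same way and the pooled interval excludes 1. By that rule 1 of 6 tested members was higher in each of the 3 ranges, always Top2a, beside 19.6% of all genes in the S-only range, 23.8% in the range high in both and 17.6% in the G2/M-only range. The median depth of the cells differed too, at 7683, 8636 and 6694 UMIs in the S-only, both and G2/M-only ranges and 4748 in the low range, and Top2a kept its call in all 3 ranges when every cell was counted from 2000 UMIs.

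Top2b did not share this pattern. It stood at 46.7 CPM in S-only cells (41.4 to 52.4), 49.7 in cells high in both (45.0 to 54.8) and 46.2 in G2/M-only cells (40.1 to 53.0), against 39.8 in low cells (36.7 to 43.1), all suffixes together. The log2 differences of 0.00, 0.24 and 0.18 did not meet the rule, since the suffixes went both ways in each range. The Top2a share of Top2 UMIs was 64.0% in S-only cells (60.6 to 67.3), 84.4% in cells high in both (82.9 to 85.8) and 79.8% in G2/M-only cells (77.2 to 82.2), against 19.2% in low cells (16.4 to 22.1). By suffix it lay between 14.5% and 24.6% in low cells and between 79.9% and 88.7% in cells high in both.

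**Figure D2:**
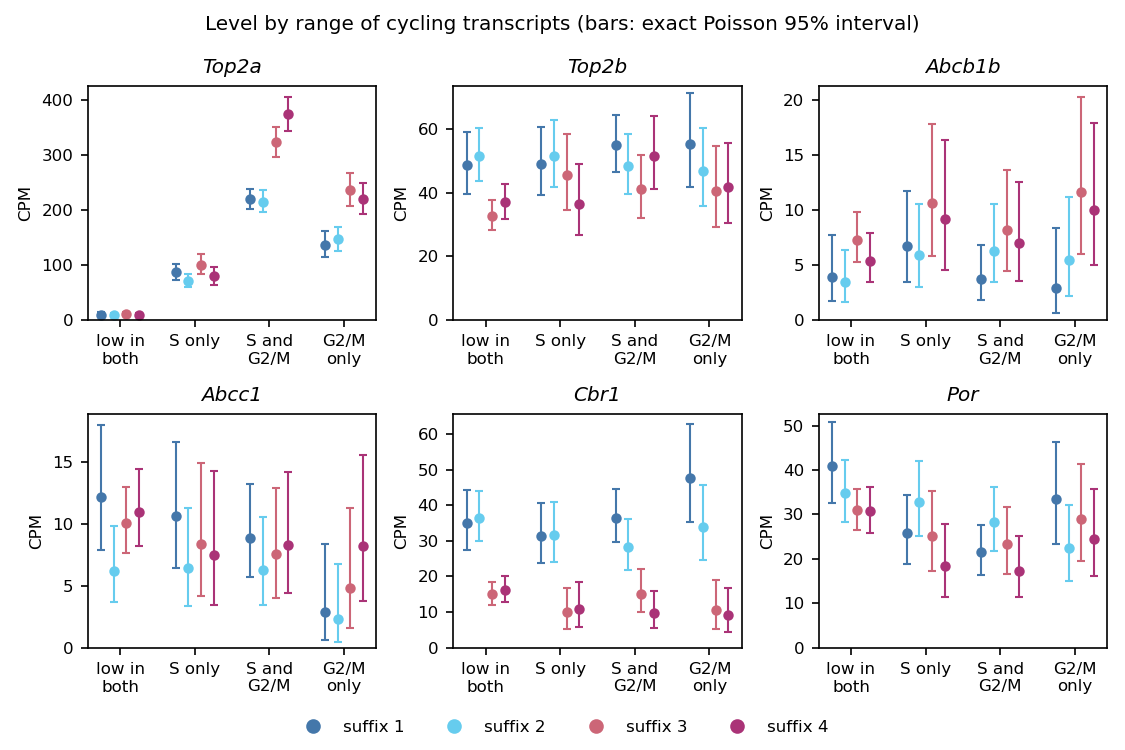
Level in CPM (y axis, from 0) of 6 members by range of cycling transcripts (x axis) and barcode suffix (colour), with exact Poisson 95% intervals. Top2a runs from 8.29 to 10.7 CPM in the low range and from 215 to 373 CPM in the range high in both, while Cbr1 keeps its gap between suffixes 1 and 2 and suffixes 3 and 4 in each range.

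**Figure D3:**
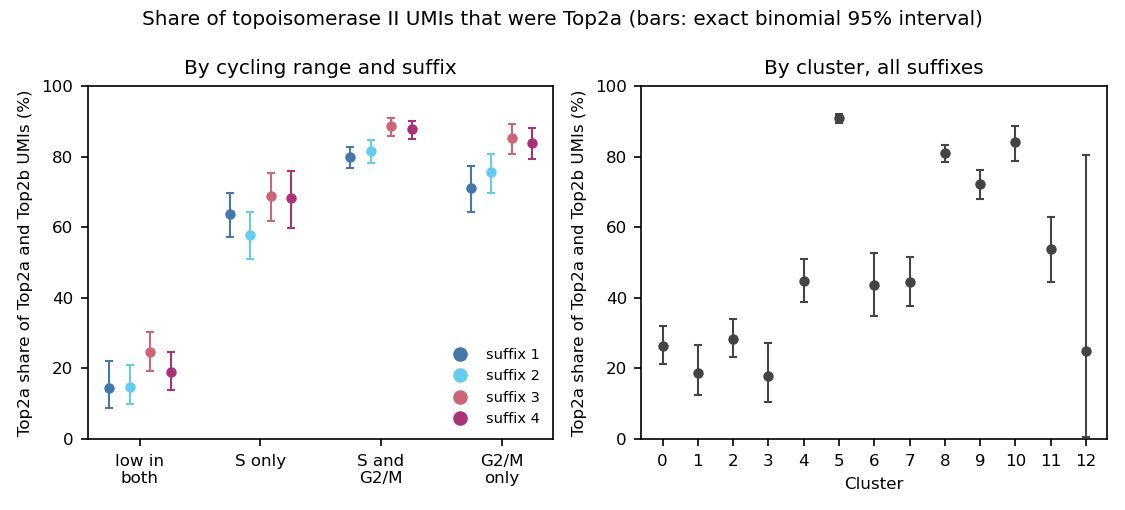
Share of Top2a among the UMIs of Top2a and Top2b (y axis, %, from 0 to 100) by cycling range and suffix (left) and by cluster of cells with all suffixes together (right), with exact binomial 95% intervals. The share is under 25% in the low range of every suffix and 91.0% in cluster 5.

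Of the other members, Por and Abcc1 were lower in some cycling ranges. Por stood at 21.4, 28.3, 23.2 and 17.3 CPM in suffixes 1 to 4 in cells high in both, against 41.0, 34.8, 31.0 and 30.8 CPM in low cells. It was lower in every suffix, by a log2 difference of -0.60 (lowest suffix -0.90, highest -0.29), and in S-only cells by -0.47 (-0.72 to -0.08). The S-only call was lost without suffix 1 (-0.30) and without suffix 4 (-0.30), and also with thinned cells, with the mean over cells and with limits at the list medians. Lower members were 1 of 6 in both ranges, beside 19.5% of all genes in S-only cells and 21.8% in cells high in both. In G2/M-only cells Por differed by -0.30 and did not meet the rule. It met it there as lower with TMM factors, median of ratios factors and phase calls, and without suffix 1 or suffix 3, and differed by 0.21 with thinned cells.

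Abcc1 stood at 2.86, 2.31, 4.84 and 8.19 CPM in suffixes 1 to 4 in G2/M-only cells, against 12.2, 6.20, 10.0 and 11.0 CPM in low cells. It was lower in each suffix, by a log2 difference of -1.02, on only 20 UMIs in the G2/M-only range, with a pooled ratio of 0.452 (0.269 to 0.723). This was 1 lower member of 6, beside 11.9% of all genes, and with the limits at the median of each list it was not met. Abcb1b differed by 0.64, 0.24 and 0.57 in S-only cells, cells high in both and G2/M-only cells and met the rule in none.

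The Cbr1 gap between suffixes stood within every cycling range. In low cells Cbr1 had 35.1, 36.5, 15.04 and 16.1 CPM in suffixes 1 to 4. In S-only cells it had 31.3, 31.7, 9.87 and 10.8 CPM, and in cells high in both 36.6, 28.3, 15.1 and 9.58 CPM. In G2/M-only cells it had 47.7 CPM for suffix 1 (35.4 to 62.8), 33.9 for suffix 2 (24.7 to 45.6), 10.6 for suffix 3 (5.31 to 19.0) and 9.10 for suffix 4 (4.36 to 16.7). Suffixes 1 and 2 were above suffixes 3 and 4 in all 4 ranges. Between ranges, Cbr1 differed by -0.37 in S-only cells, -0.18 in cells high in both and -0.28 in G2/M-only cells and met the rule in none. The pooled ratios to low cells were above 1 (1.03, 1.12 and 1.16), opposite in sign to these medians within suffixes, and suffixes 1 and 2 held larger shares of the cycling cells.

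Of the 10 other topoisomerase and break repair genes, all measured, 8 were higher and none was lower in each of the 3 ranges. Of all tested genes, 19.6%, 23.8% and 17.6% were higher in the S-only, both and G2/M-only ranges, and 19.5%, 21.8% and 11.9% lower. Median log2 differences of the 10 genes were 0.74, 0.87 and 0.47, beside -0.04, -0.03 and 0.03 over all tested genes. Rad50, of the complex that processes DNA ends, stood at 60.6 CPM in cells high in both, against 31.6 in low cells (log2 0.87), and its partner Mre11a at 31.0 against 9.68 (log2 1.53). Top1, the single-strand cutting topoisomerase, stood at 146 against 139 CPM and did not meet the rule in that range. Of 5 measured other transporters, 1 was higher and 1 lower in cells high in both, near the shares of all tested genes (23.8% and 21.8%). The lower was Mvp, the major vault protein, at 18.0 against 29.4 CPM. Of 9 measured other reduction genes, 1 was higher and none lower there, beside the same shares of all tested genes.

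The clusters of cells were built without the 8 members. The naming rule was met by 4 of 13 clusters. Granulocyte precursor-like cells made up clusters 2 and 11 (870 cells, led by Mpo and Nkg7). Cluster 2, with 680 of these cells, had 3 raised precursor markers, the fewest the rule allows, and cluster 11, with 190, had 10. Cluster 3 was monocyte-like (567 cells, led by Apoe and Lpl) and cluster 10 was neutrophil-like (247 cells, led by Ngp, Camp and S100a9). Among the leading genes of the monocyte-like cluster, Apoe and Lpl were listed as macrophage markers. The granulocyte precursor-like cells were 28.6% and 39.2% of suffixes 1 and 2 and under 2% of suffixes 3 and 4, so ratios for them rest on suffixes 1 and 2. The monocyte-like and neutrophil-like ratios rest on suffixes 3 and 4. Each stage is set against all other cells of the same suffixes. These are descriptions, since members may covary with the genes that made the clusters.

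Of the 3 named stages, Top2a was lowest in the monocyte-like cells. It stood at 6.62 CPM in monocyte-like cells and 121 CPM in the other cells of suffixes 3 and 4, a log2 difference of -4.04 (-4.38 and -3.69 in the pair of suffixes). In granulocyte precursor-like cells it stood at 25.9 CPM, against 150 CPM in the other cells of suffixes 1 and 2, a difference of -2.45. Those other cells included cluster 8, which met no rule for a name and had Top2a at 239 CPM. The precursor markers Elane and Mpo stood at 5679 and 2473 CPM in cluster 8, and at 6718 and 2782 CPM in cluster 2. Only 2.20% of cluster 8 was in the low cycling range, against 59.2% of cluster 2. Stage and cycling were thus not separate in this comparison. In neutrophil-like cells Top2a stood at 122 CPM, against 104 CPM (0.25), and did not meet the rule. Within the range low in both cycling lists the differences were -0.69 in monocyte-like, -0.50 in granulocyte precursor-like and -0.25 in neutrophil-like cells, and none met the rule.

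Top2b was lower in neutrophil-like cells, at 21.9 CPM against 39.8 CPM in the other cells. The log2 difference was -0.83 (-0.84 and -0.81), beside a median of -0.39 over all tested genes in that comparison. Within the low range it was -1.04, on 12 UMIs in the class at 16.4 CPM against 36.1 CPM, beside a median of -0.50 over all tested genes. That call was lost without suffix 3 (-0.74), with cells thinned to 2000 UMIs and with median of ratios factors. In monocyte-like cells Top2b stood at 30.2 CPM, against 39.6 CPM (-0.38), and the call was lost without suffix 3 (-0.44) and without suffix 4 (-0.32). It was also lost with no filter on cells, with cells thinned to 2000 UMIs and at Leiden resolution 2. In granulocyte precursor-like cells it stood at 44.8 CPM, against 54.2 CPM (-0.27), a difference that met the rule in 5 of 16 alternatives and was 0.00 with cells thinned to 2000 UMIs. Without suffix 1 that call was lost (-0.25), as without suffix 2 (-0.29). The Top2a share of Top2 UMIs was 84.2% in the neutrophil-like cluster (78.7 to 88.7) and 17.8% in the monocyte-like cluster (10.5 to 27.3).

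Abcb1b was lower in all 3 named stages. In neutrophil-like cells it had 1 UMI (0.683 CPM) in suffixes 3 and 4, against 141 UMIs (8.28 CPM) in the other cells, a ratio of 0.0825 (0.00207 to 0.467). It had 0 UMIs in neutrophil-like cells of the low range, against 6.91 CPM, with a ratio interval of 0 to 0.750. With 3 counts set for the class in place of 0, it was 1.68-fold lower there. In monocyte-like cells it stood at 3.31 CPM, against 8.34 CPM (0.397; 0.168 to 0.805). In granulocyte precursor-like cells it stood at 2.64 CPM, against 5.90 CPM (0.448; 0.232 to 0.809).

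Over all cells, the granulocyte precursor-like call for Abcb1b was lost without suffix 1 (log2 -0.70). It was also lost with cells thinned to 2000 UMIs and at Leiden resolution 0.5. The monocyte-like call was lost without suffix 4 (-0.79), with thinned cells and at Leiden resolution 2. Within the low range Abcb1b was again lower in all 3 stages. The ratios were 0.330 in granulocyte precursor-like cells (0.0921 to 0.986) and 0.426 in monocyte-like cells (0.164 to 0.932). Both intervals reach close to 1, on 5 and 7 UMIs in the class. With any 1 usable suffix left out, none of the 3 calls of the low range was met, with log2 differences of -0.87 and -1.83 in granulocyte precursor-like, -1.37 and -0.78 in monocyte-like and -2.75 and -3.15 in neutrophil-like cells, and none was met with cells thinned to 2000 UMIs.

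Cbr1 was lower in monocyte-like cells, at 9.11 CPM against 14.3 CPM in the other cells of suffixes 3 and 4, a log2 difference of -0.59, and -0.82 within the low range. Over all cells the call was lost without suffix 3 (-0.48) and without suffix 4 (-0.71), and in 3 other clusterings. In the low range it was lost without suffix 3 (-0.89) and without suffix 4 (-0.75). In the neutrophil-like cells Cbr1 differed by 0.21 and in the granulocyte precursor-like cells by -0.24, and neither met the rule. Por differed by 0.09, 0.14 and 0.17 in monocyte-like, neutrophil-like and granulocyte precursor-like cells, and Abcc1 by -0.33, -0.39 and 0.12, and neither met the rule in any of them.

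In all, 3 of 6 members were lower in granulocyte precursor-like cells, beside 19.2% of all genes, 4 of 6 in monocyte-like cells, beside 26.3%, and 2 of 6 in neutrophil-like cells, beside 37.5%, the last a share near that of all genes. None was higher, beside 7.07%, 22.4% and 8.31%. Within the low range the counts of lower members were 1, 2 and 2, beside 16.5%, 16.4% and 30%, and of higher members 0, beside 7.51%, 17.3% and 6.17%. The 4 lower members of the monocyte-like cells were Top2a, Top2b, Abcb1b and Cbr1.

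Of the same lists, the other topoisomerase and break repair genes counted 5 lower of 10 in granulocyte precursor-like cells, beside 19.2% of all genes. They counted 6 of 10 lower in monocyte-like cells, beside 26.3%, and 1 of 10 in neutrophil-like cells, beside 37.5%. None was higher, beside 7.07%, 22.4% and 8.31%. Within the low range the counts of lower genes were 2, 1 and 0, beside 16.5%, 16.4% and 30% of all genes. There 1 was higher in granulocyte precursor-like cells, beside 7.51%. In monocyte-like cells Xdh, xanthine dehydrogenase, stood at 53.0 CPM, against 11.6 CPM (log2 2.11), and Hmox1, haem oxygenase, at 74.9 against 20.8 CPM (1.77). Other reduction genes counted 2 higher and 1 lower of 9 there, and antioxidant genes 4 higher and 2 lower of 9. Of all genes, 22.4% were higher and 26.3% lower in monocyte-like cells. In neutrophil-like cells 4 of 9 other reduction genes and 5 of 9 antioxidant genes were lower and none was higher, among them Akr1a1, an aldehyde reductase, at 162 against 373 CPM. With 37.5% of all tested genes lower there, the list medians of -0.53 and -0.37 stood beside -0.39 over all genes.

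**Figure D4:**
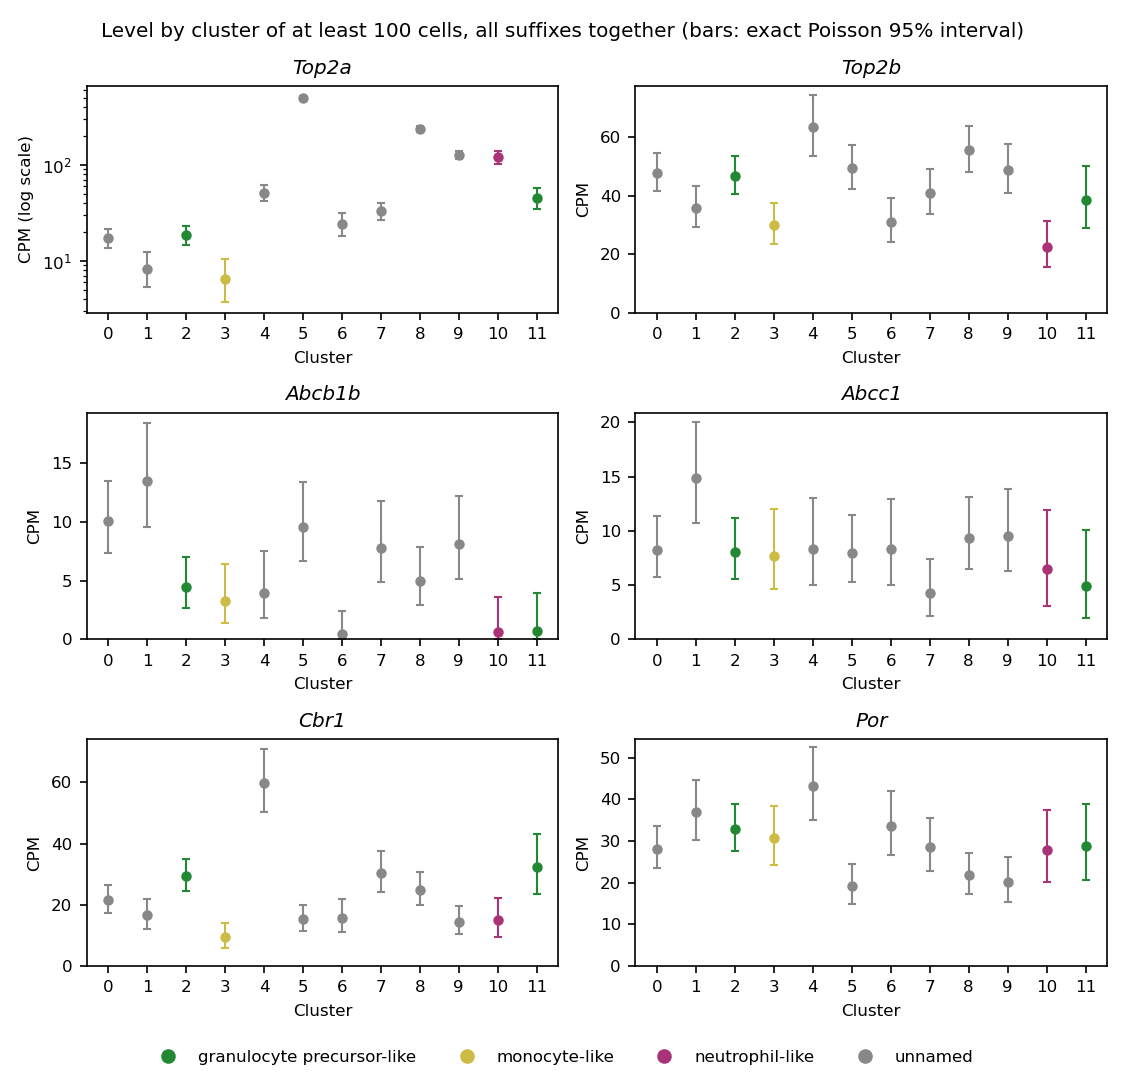
Level in CPM (y axis, log scale for Top2a only, from 0 for the others) of 6 members in the 12 clusters of at least 100 cells (x axis), all suffixes together, coloured by the name of the cluster, with exact Poisson 95% intervals. Top2a spans 6.48 CPM in cluster 3 to 497 CPM in cluster 5, and Abcb1b has a single UMI in each of clusters 6, 10 and 11.

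Across all clusters Top2a was concentrated in a few. Cluster 5, led by Hist1h2ap, Ube2c and Nusap1, stood at 497 CPM (474 to 521) and held 47.6% of all Top2a UMIs in 387 cells. Its levels by suffix were 484, 561, 471 and 502 CPM in suffixes 1 to 4, close to each other. Cluster 8, led by Phgdh and Rrm2, stood at 239 CPM and held 23.4% of the UMIs. Cluster 9, led by Ung, Ccnd1 and E2f1, stood at 127 CPM. Clusters 5, 8 and 9 also had the deepest cells, with medians of 9002, 9882 and 8471 UMIs, and the part of cell doublets in this was not tested.

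Cluster 7 was led by Ccnb2, Cenpa, Hist1h2bc and Cdc20. It stood at 32.8 CPM of Top2a (26.5 to 40.2), at 45.5, 30.1, 19.2 and 23.4 CPM in suffixes 1 to 4. Within G2/M-only cells of suffixes 3 and 4, a comparison chosen after its values were seen, cluster 7 had 26.3 CPM and cluster 5 had 554 CPM, a log2 difference of -4.36 (-4.52 and -4.20). Top2a was the 1 lower member of 6, beside 6.21% of all genes. Por was the 1 higher member, at 35.0 against 10.1 CPM on only 20 and 7 UMIs, beside 5.94%. Over all suffixes in that range Mki67, a proliferation marker, was counted at 52.6 CPM (cluster 7) and 250 CPM (cluster 5), and Plk1, a mitotic kinase, at 26.0 and 144 CPM. Most of the mitotic genes looked at were lower in cluster 7. Ube2c stood at 127 and 1007 CPM, Cenpf at 53.3 and 244 CPM, the cyclin gene Ccnb1 at 115 and 334 CPM and Cdc20 at 231 and 311 CPM in clusters 7 and 5. Closest between the clusters were the other 2 genes. The cyclin gene Ccnb2 stood at 539 and 464 CPM and the centromere histone gene Cenpa at 533 and 613 CPM. These mitotic gene levels are pooled over suffixes, in which the clusters differ. Over all ranges, cluster 7 held 131, 141, 49 and 50 cells in suffixes 1 to 4, and cluster 5 held 73, 65, 127 and 122.

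With all suffixes together, Abcb1b was counted most in clusters 1, 0 and 5, whose intervals overlapped, and least in clusters 6, 10 and 11. This order did not hold in each suffix, since cluster 5 had 0 UMIs in suffix 1, and clusters 7 and 4 stood at 19.2 and 16.4 CPM in suffix 3, on 8 and 2 UMIs. It stood at 13.5 CPM in cluster 1 (9.57 to 18.4), led by Cd74 and Wfdc17, and at 10.1 CPM in cluster 0 (7.32 to 13.5), led by Fbxw4 and Tsc22d1. In cluster 5 it stood at 9.61 CPM (6.66 to 13.4). Clusters 6, 10 and 11 had 1 UMI each, 3 UMIs in 5261366, or 0.570 CPM (0.118 to 1.67). Cluster 6 was led by Prg2 and Prg3, eosinophil granule protein genes, and met no rule for a name. Top2a was counted at 58.0 CPM in those same 814 cells of clusters 6, 10 and 11.

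With all suffixes together, Abcc1 stood highest in cluster 1, at 14.8 CPM (10.7 to 19.99), and lowest in cluster 7, at 4.24 CPM (2.19 to 7.40), among clusters of at least 100 cells. Against the other cells of suffixes 3 and 4, cluster 1 was higher for Abcb1b (13.3 against 6.69 CPM), Abcc1 (14.4 against 8.41 CPM) and Por (36.7 against 26.0 CPM) and lower for Top2a. That was 3 of 6 members higher, beside 23.5% of all genes, and 1 of 6 lower, beside 20.1%. The median depth in cluster 1 was 3989 UMIs.

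Cbr1 was highest in cluster 4, led by Cpa3, Npy and Mcpt8, genes known from mast cells and basophils in the case of Cpa3 and Mcpt8. The cluster met no rule for a name. It had 7 raised stem and progenitor markers, among them Flt3, Kit and Adgrg1, and 4 raised mast cell and basophil markers. Cbr1 stood in cluster 4 at 55.6 CPM for suffix 1 (44.1 to 69.2), 71.4 for suffix 2 (52.7 to 94.7) and 65.5 for suffix 3 (28.3 to 129). These were the suffixes with at least 30 such cells, and their intervals overlapped, that of suffix 3 being wide with 34 cells and 8 UMIs. Against the other cells of the same suffixes the level was 60.9 CPM in cluster 4 and 23.4 CPM elsewhere, a log2 difference of 1.25. Por was higher in cluster 4 as well, at 43.0 against 28.6 CPM (0.49), while Top2a was lower (-1.18). This was 2 of 6 members higher, beside 10.6% of all genes, and 1 of 6 lower, beside 8.59%.

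Outside cluster 4 the Cbr1 gap between suffixes recurred in clusters found in all 4 suffixes. In cluster 5 Cbr1 had 40.4, 24.2, 7.34 and 6.78 CPM in suffixes 1 to 4. In cluster 0 it had 34.1, 31.8, 12.8 and 19.3 CPM, and in cluster 7 it had 41.4, 32.9, 19.2 and 7.79 CPM. Suffixes 3 and 4 were below suffixes 1 and 2 in each of these clusters, with wide and in part overlapping intervals. In cluster 9 the values were 20.2, 27.4, 13.2 and 9.48 CPM, with overlapping intervals.

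**Figure D5:**
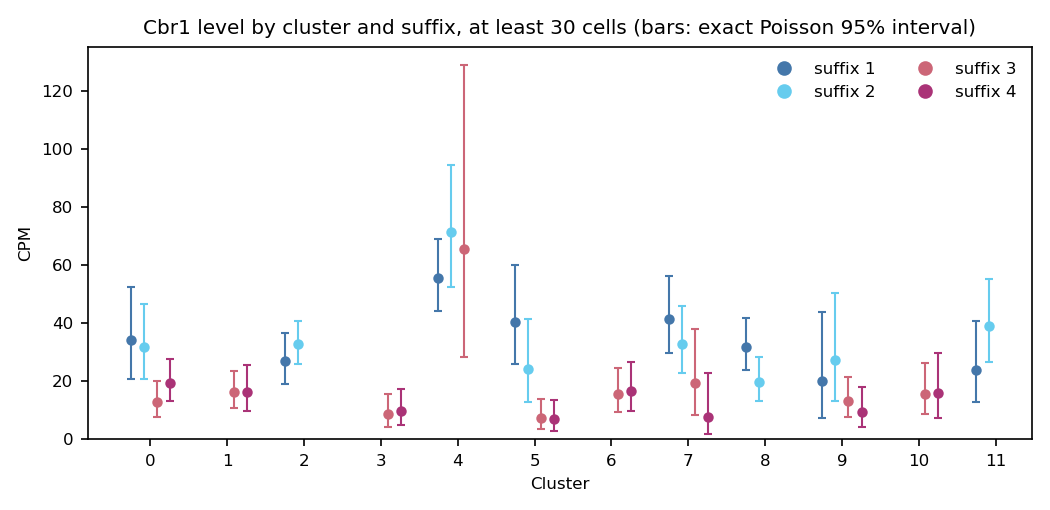
Cbr1 level in CPM (y axis, from 0) in each cluster (x axis) and suffix (colour) with at least 30 cells, with exact Poisson 95% intervals. Cluster 4 stands between 55.6 and 71.4 CPM in 3 suffixes, and in cluster 5 suffixes 1 and 2 stand at 40.4 and 24.2 CPM and suffixes 3 and 4 at 7.34 and 6.78 CPM.

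Likeness of pattern was measured as Pearson's r of log2(CPM + 1) over 33 combinations of cluster and suffix with at least 30 cells, which share libraries and depths, and is given as a description over 4705 genes with a mean of at least 20 CPM. The genes most like Top2a were Tyms, the thymidylate synthase (0.94), Pbk, a mitotic kinase (0.93), Cdk1, the kinase of mitotic entry (0.93), Tuba1b (0.93) and Cdca5 (0.92). Cbr1 was most like Ptprcap, a CD45-associated protein (0.90), Ifi27 (0.88) and BC031181 (0.85). Top2b was most like Ngfrap1 (0.81) and Acly, ATP citrate lyase (0.79). Por was most like Stat3 (0.73), Abcb1b most like Prr5 (0.68) and Abcc1 most like Mycbp2 (0.63). Between members r was lowest for Top2a and Por, at -0.51, and highest for Top2b and Cbr1, at 0.35.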

How the data were processed

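The authors deposited raw UMI counts per gene and barcode as 1 table, from 10x Chromium 3′ V2 libraries per the labels' protocols, made with Cell Ranger 1.3 against mm10 per the submitters' processing notes. No label or header names the annotation. The members, gene lists and comparisons were chosen with earlier results of these data known.

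A minimum of 500 UMIs and a limit of 10% mitochondrial UMIs left 5456 of 5664 cells, all 208 others being over the mitochondrial limit. Clusters came from scanpy 1.11.5 in Python 3.11.15 (2000 variable genes without members, 30 principal components, 15 neighbours, Leiden resolution 1, all suffixes together). A cluster took a cell type's name with at least 3 markers 2-fold up at 20 CPM or more, more than any other type, and the most markers among its 10 leading genes. Scrublet marked 24 cells (0.44%), too few for a working doublet call, and none was removed.

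UMIs were summed per class and suffix, scaled to CPM, and set against each other on the log2(CPM + 1) scale within suffixes of at least 30 cells on both sides. Levels have exact Poisson intervals, shares exact binomial ones and ratios exact conditional binomial ones. Cells are not replicates, so there is no p-value. All 8 members are named, with the 5 most alike genes for each of 6, of which some are left out, and the examples of each list are its members with the highest mean or the largest ratio. On simulated counts for cells high in both cycling lists against low cells, with 8244 genes, the rule recovered most of the 3-fold changes. Those counts had counting error only and the same change in every suffix. The simulation therefore cannot show how the rule fares with variation between cells or suffixes, and its result for smaller changes is not given. Promoter sequences are RefSeq's, and 7 of 8 members matched an entry. Alternatives covered filters, depth, scaling, doublets, clustering, cycling limits and suffixes left out.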

Additional observations from a re-analysis of the deposited data

Results flagged for a closer look

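The 208 barcodes over the mitochondrial limit, which enter no comparison, held transcripts of 7 of the 8 members. Top2a stood at 512 CPM there (445 to 586), against 107 CPM in kept cells, and at 488, 502, 438 and 660 CPM in the removed barcodes of suffixes 1 to 4. Every suffix was far above its kept cells, which stood at 99.2 to 119 CPM. The summed G2/M list stood at 5319 CPM in removed barcodes and 4248 CPM in kept cells, and the S list at 4373 and 2820 CPM, so both lists differed less than Top2a did. Abcb1b stood at 39.0 CPM (22.3 to 63.3), against 6.36 CPM in kept cells, Abcc1 at 31.7 CPM (16.9 to 54.2), against 8.45 CPM, and Por at 60.9 CPM (39.4 to 90.0), against 28.8 CPM. Top2b at 56.1 CPM (35.5 to 84.1), against 44.3 CPM, and Cbr1 at 21.9 CPM (10.0 to 41.6), against 23.3 CPM, had intervals that include the level in kept cells. The removed barcodes were shallow, with a median of 1849 UMIs and 410256 UMIs in all, and Abcb1b and Abcc1 rest on 16 and 13 UMIs.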

How the results depend on the processing

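Of 858 member ratios under the alternatives, 817 moved by no more than the half-width of their counting interval and 40 by more. The sign of 1 called ratio changed, that of Top2b in granulocyte precursor-like cells, at 0.00 (0.00397) with cells thinned to 2000 UMIs. The sign also changed in 50 values of ratios that had not met the rule, 2 of which met it under the alternative. These were Top2a in granulocyte precursor-like cells of the low range, at 1.68 with members among candidate variable genes, and Top2a in neutrophil-like cells, at -0.99 with Leiden resolution 0.5. Top2a kept its call in all 3 cycling ranges and in granulocyte precursor-like and monocyte-like cells under every alternative run. Its values ran from 4.23 to 4.90 in cells high in both lists and from -4.38 to -3.02 in monocyte-like cells. In granulocyte precursor-like cells they ran more widely, from -2.76 to -0.91. Neutrophil-like Top2b and Abcb1b also kept theirs over all cells, with Top2b between -1.24 and -0.54.

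Counts of members called moved as follows. With cells thinned to 2000 UMIs they were 1 in S-only cells, 1 in granulocyte precursor-like, 2 in monocyte-like cells and, within the low range, 0 in granulocyte precursor-like, 1 in monocyte-like and 0 in neutrophil-like cells. With limits at the list medians they were 1 in S-only and 1 in G2/M-only cells, and 1 in monocyte-like and 1 in neutrophil-like cells of the low range. With the mean over cells S-only cells had 1. Leiden resolution 0.5 gave 1 in granulocyte precursor-like cells and 2 in those of the low range, and resolution 2 gave 2 in monocyte-like cells. In granulocyte precursor-like cells of the low range, no cell filter gave 2, members among candidate variable genes 2, phase calls 2, TMM factors 0 and median of ratios factors 0, which gave 1 in neutrophil-like cells of the low range. In G2/M-only cells the count was 3, not 2, wherever Por met the rule. Leaving out each suffix gave 1 to 2 in S-only, 1 to 4 in granulocyte precursor-like, 1 to 4 in monocyte-like cells and, in the low range, 0 to 1 in granulocyte precursor-like, 0 to 2 in monocyte-like and 0 to 2 in neutrophil-like cells. Thinning and leaving out a suffix also leave fewer UMIs. Beyond this the cause was not tested.

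No paired analysis was possible because no barcode suffix is tied to a sample and no result comes from a test. The median over all genes in neutrophil-like cells was -0.39 with total counts, -0.13 with TMM factors and -0.11 with median of ratios factors. Depth limits Abcb1b, Abcc1 and Abcg2, which had 219, 291 and 4 UMIs in all kept cells.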
